A study of Mus musculus with 12 samples.

Results

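The 9 genes described here encode the core of the renin-angiotensin system: the precursor Agt, the protease Ren1 and its receptor Atp6ap2, the converting enzyme Ace, the receptors Agtr1a and Agtr2, and the angiotensin-cutting aminopeptidases Enpep, Anpep and Lnpep. They were chosen by name out of 48709 gene identifiers in the files, and Agt was picked because its level was high in mCherry-positive cells. Values of the 9 genes in the mCherry comparison are therefore a description, given with no p.

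The study sorted cells of the C57BL/6 mouse hypothalamus, taken at embryonic day 18, dissociated, exposed to virus at a multiplicity of infection of 10 and kept as floating neurospheres. They received the growth factor bFGF (10 ng/ml) 24 h later, and a week of culture came before the sort. There were 12 libraries in 4 groups of 3. mCherry-positive and mCherry-negative cells came from cultures given an adeno-associated virus meant to mark cells that make hypocretin (Hcrt). EGFP-positive and EGFP-negative cells came from cultures given a lentivirus meant to mark cells that make melanin-concentrating hormone (Pmch). All 4 groups thus came from cultures given a virus, and no group without virus was analysed here. Which promoters drove the reporters is not stated in the labels.

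In the body, angiotensinogen is a secreted protein that renin cuts to angiotensin I, and angiotensin-converting enzyme then trims it to angiotensin II, which acts through the type 1 and type 2 receptors on blood pressure, thirst and salt balance. Aminopeptidase A (Enpep) turns angiotensin II into angiotensin III, and aminopeptidase N (Anpep) cuts that further. In the adult brain, angiotensinogen is made mainly by astrocytes, and how much renin the brain itself makes is debated.

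GENCODE M21 on GRCm38 places the precursor, the renin step and the converting enzyme as follows: Agt (ENSMUSG00000031980) at chr8:124556534-124569706 (minus), Ren1 (ENSMUSG00000070645) at chr1:133350510-133360325 (plus), Atp6ap2 (ENSMUSG00000031007) at chrX:12587801-12617049 (plus), and Ace (ENSMUSG00000020681) at chr11:105967945-105989964 (plus), with strands in brackets. The receptors are Agtr1a (ENSMUSG00000049115) at chr13:30336441-30382867 (plus) and Agtr2 (ENSMUSG00000068122) at chrX:21484544-21489164 (plus). The aminopeptidases are Enpep (ENSMUSG00000028024) at chr3:129269175-129332720 (minus), Anpep (ENSMUSG00000039062) at chr7:79821803-79861059 (minus) and Lnpep (ENSMUSG00000023845) at chr17:17521410-17625050 (minus).

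The sequences below show what the precursor gene encodes and what stands before the start of the 2 genes with the most reads among the 9. Agt lies on the minus strand, and the coding stretch is read from exon 2 of 5 in the GENCODE M21 transcript (GRCm38, chr8:124564435-124564494), with the 8 codons of angiotensin II in capitals. The last 2 codons of angiotensin I follow directly, renin cuts after those, and converting enzyme cuts at the end of the capitals.
Agt coding stretch: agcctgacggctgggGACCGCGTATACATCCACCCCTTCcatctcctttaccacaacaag
The windows hold the 250 bases before the RefSeq start, from the GRCm38.p6 table, for Agt (chr8:124569707-124569956, minus strand) and Atp6ap2 (chrX:12587509-12587758, plus strand). Capitals mark TATAAA in Agt, and CCAAT or its reverse complement in Atp6ap2.
Agt upstream window: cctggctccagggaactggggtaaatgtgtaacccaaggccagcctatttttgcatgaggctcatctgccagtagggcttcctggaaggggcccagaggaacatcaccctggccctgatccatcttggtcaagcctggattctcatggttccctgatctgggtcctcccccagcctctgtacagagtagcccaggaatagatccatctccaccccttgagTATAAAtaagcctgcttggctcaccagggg
Atp6ap2 upstream window: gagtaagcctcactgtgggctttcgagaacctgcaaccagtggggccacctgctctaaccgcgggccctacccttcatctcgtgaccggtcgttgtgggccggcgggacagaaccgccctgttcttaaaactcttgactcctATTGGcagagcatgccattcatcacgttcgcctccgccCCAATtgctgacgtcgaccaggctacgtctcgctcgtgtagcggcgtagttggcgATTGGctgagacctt
Of the 9 genes, 8 had a window in that table, 9 windows in all. TATAAA, searched on the strand of the gene, began 30 bases before the start in Agt and 29 bases before it in Ren1, and 7.59% of all 32851 windows hold it. CCAAT, searched on both strands, began 108, 70 and 15 bases before the start of Atp6ap2, and 33.8% of all windows hold it. TTCNNNGAA, the letters STAT factors bind, stood 172 bases before the start of Agt, and 7.02% of windows hold it on either strand. TGTTCT, part of the letters that steroid receptors bind, had no match in the Agt window and stood 131 bases before the start of Atp6ap2, where it is not in capitals, and 16.1% of windows hold it on either strand. The Agt window held 0 CpG and the Atp6ap2 window 20 CpG, against a median of 6 over all windows, and no match overlapped another motif.

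Libraries held 16.3 to 32.9 megareads in genes, and CPM here means the count of a gene divided by its library's megareads in genes. A count of 0 allows a level of up to 3 counts, which is 0.0912 to 0.184 CPM depending on the library. Hcrt stood at 0.163, 0.0949 and 0.426 CPM in mCherry-positive libraries, against 0.0329, 0.153 and 0.23 CPM in mCherry-negative libraries, so the hormone gene the reporter stands for was near the detection limit. Pmch stood at 16.3 to 17.8 CPM in EGFP-positive libraries and at 4.01 to 5.12 CPM in EGFP-negative libraries. The summed level of 9 anterior pituitary markers was 9.07, 2336 and 5553 CPM in mCherry-positive replicates 1, 2 and 3, and that of 8 microglia markers was 614, 72.9 and 84.5 CPM, so these 3 libraries stood apart from each other. In the mCherry comparison, 0.541% of 17369 genes were called higher and 0.656% lower, and in the EGFP comparison 8.99% of 16326 genes were called higher and 7.07% lower. A gene counts as called where its Benjamini-Hochberg adjusted p from the edgeR quasi-likelihood test, taken over all genes tested, is under 0.05.

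Agt was read strongly in every library and stood higher in reporter-positive cells of both sorts. It had 574, 315 and 474 CPM in mCherry-positive libraries, against 86.3, 105 and 79.6 CPM in mCherry-negative libraries. The lowest mCherry-positive library was 2.99 times the highest mCherry-negative one. Agt in the EGFP sort had 562, 515 and 495 CPM in EGFP-positive libraries, against 260, 257 and 230 CPM in EGFP-negative libraries. These groups did not overlap either, and the lowest EGFP-positive library was 1.91 times the highest EGFP-negative one.

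The mCherry contrast chose Agt, and its log2 fold change there was 2.31 ± 0.25 (SE), as a description. In the EGFP sort, which is not the contrast that picked it, Agt rose by a log2 fold change of 1.18 ± 0.10 (SE; edgeR adjusted p 2.19e-04), with all 3 positive libraries above all 3 negative. Leaving out each library in turn gave log2 fold changes of 1.13 to 1.22 there, all called. In the mCherry sort they were 2.06 to 2.51. Agt stood at 2.26 when replicate 1 of the mCherry-negative cells was left out, at 2.46 without their replicate 2 and at 2.31 without replicate 3 of the mCherry-positive cells. In those 3 fits 0 genes at all were called by edgeR, and 3673, 2764 and 2439 genes had an unadjusted p under 0.05. Fewer cells that make a transcript and less transcript per cell cannot be told apart in these pooled cells, here or for any gene below.

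Over the 4 groups, the order of Agt was EGFP-positive with 524 ± 34.3 CPM, mCherry-positive with 454 ± 130 CPM, EGFP-negative with 249 ± 16.4 CPM and mCherry-negative with 90.4 ± 13.4 CPM (SD, n = 3 each). The first pair in that order overlapped library by library, and the other neighbours did not. The means of the negative groups thus lay further apart than those of the positive groups. The mCherry effect minus the EGFP effect was 1.10 ± 0.27 (SE) on the log2 scale, given with no p because it contains the contrast that chose Agt.

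**Figure D1:**
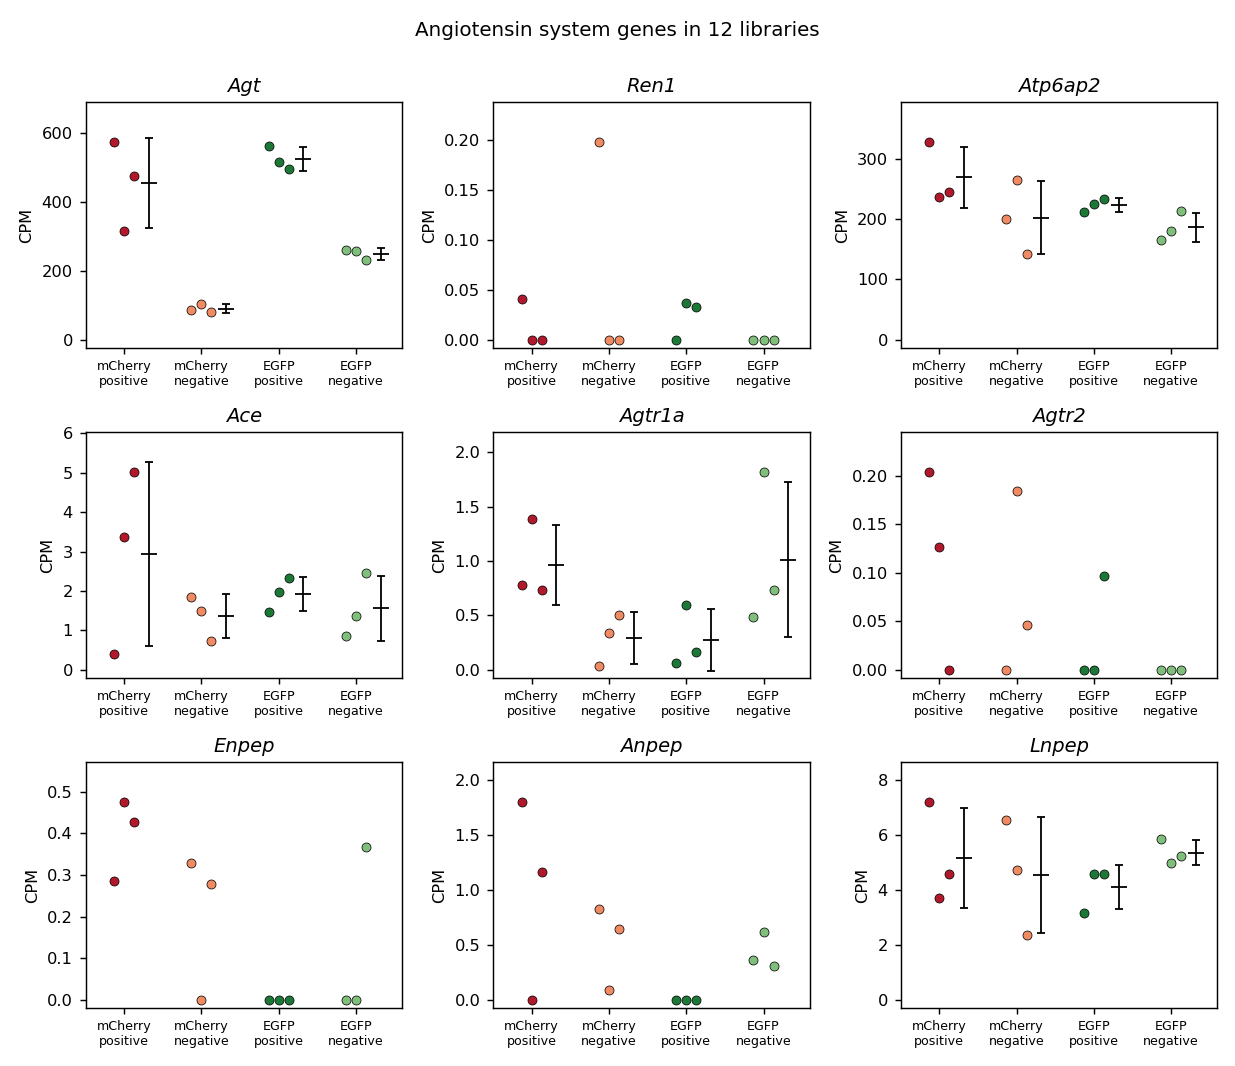
Level in CPM (vertical axes, each with its own scale) of the 9 angiotensin system genes in the 4 groups, with 1 point per library and, beside the points, the mean and SD (bars, n = 3), left out for the 4 genes with mostly zero or few reads. Agt separates positive from negative cells in both sorts, with 315 to 574 CPM against 79.6 to 105 CPM for mCherry, while Ren1 and Agtr2 stay at or near 0.

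The summed level of 16 genes listed as astrocyte markers was also higher in both kinds of reporter-positive cells. Radial glia and neural stem cells had no list here, and which cells carried these transcripts was not tested. The 16 markers summed to 26503, 20535 and 22316 CPM in mCherry-positive libraries, against 14940, 16465 and 11401 CPM in mCherry-negative libraries, and to 34980, 33522 and 33310 CPM in EGFP-positive libraries, against 19421, 18538 and 18224 CPM in EGFP-negative libraries. No astrocyte marker was at 0 in any group. In the EGFP sort 12 of the 16 rose and 1 fell, where 8.99% of all genes tested were called higher and 7.07% lower. The 1 that fell was S100b, which averaged 47.9 CPM in EGFP-positive and 81.5 CPM in EGFP-negative cells. The smallest adjusted p belonged to Gfap, the astrocyte intermediate filament (log2 fold change 1.08 ± 0.06 SE, adjusted p 3.32e-05 by edgeR), followed by Mlc1 (0.91), a membrane protein of astrocyte endfeet, Clu (0.87), the secreted chaperone clusterin, and Aldoc (0.74), a glycolytic enzyme. For mCherry cells 1 of 16 was called, Gfap (1.45 ± 0.21 SE, adjusted p 0.0307 by edgeR), with 7 at an unadjusted p under 0.05. Of all 17369 genes tested in that sort, 0.541% were called higher and 0.656% lower, and 3233 had an unadjusted p under 0.05. There 8 of 16 had all positive libraries above all negative, as did 12.7% of all genes tested. The means of Aldh1l1 (550 against 648 CPM) and Glul (157 against 165 CPM) were lower in mCherry-positive than in mCherry-negative cells. Markers of ependymal cells and tanycytes, 8 genes, summed to 93.1 to 120 CPM in mCherry-positive and 33.1 to 65.5 CPM in mCherry-negative libraries, and to 110 to 131 CPM in EGFP-positive and 76.8 to 84.8 CPM in EGFP-negative libraries. Of these 8, 1 rose in mCherry-positive cells and 4 in EGFP-positive cells. Of 8 markers of dividing cells 5 fell in mCherry-positive cells, where they summed to 257 to 345 CPM, against 695 to 881 CPM in mCherry-negative cells. They summed to 773 to 812 CPM in EGFP-positive cells, where 1 fell, against 944 to 963 CPM in EGFP-negative cells. The 8 choroid plexus markers summed to 34, 282 and 80.8 CPM in mCherry-positive libraries, against 37.8, 89.2 and 21.7 CPM in mCherry-negative libraries, and to 186 to 232 CPM in EGFP-positive libraries, against 66.6 to 73 CPM in EGFP-negative libraries. Of the 6 tested there, 4 rose in EGFP-positive cells. In EGFP-positive cells 7 of 8 oligodendrocyte markers and 6 of 8 neuron markers fell as well. No marker of the dividing cell, choroid plexus or ependymal lists was at 0 throughout a group, and the part of any of these cells in the difference of Agt was not tested.

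Agt was also set against the astrocyte markers library by library. The sum gives most weight to the genes of highest level. Apoe, Slc1a3 and Gfap averaged 8182, 3698 and 3110 CPM in mCherry-positive and 10696, 5320 and 6518 CPM in EGFP-positive cells. Gjb6, the lowest, averaged 4.18 and 5.93 CPM. Agt per 100 CPM of the summed markers was 2.16, 1.54 and 2.12 in mCherry-positive libraries, against 0.578, 0.64 and 0.698 in mCherry-negative libraries, as a description. It was 1.61, 1.54 and 1.49 in EGFP-positive libraries, against 1.34, 1.38 and 1.26 in EGFP-negative libraries, groups that did not overlap but lay close (2-sided exact permutation p = 0.1, the smallest that 3 against 3 allows). Per 100 CPM of Gfap, Agt was 13.1 to 16.5 in mCherry-positive libraries and 6.46 to 10.3 in mCherry-negative libraries. Per Gfap the EGFP groups overlapped, with 7.61 to 8.77 in EGFP-positive and 6.97 to 7.79 in EGFP-negative libraries (2-sided exact permutation p = 0.5).

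**Figure D2:**
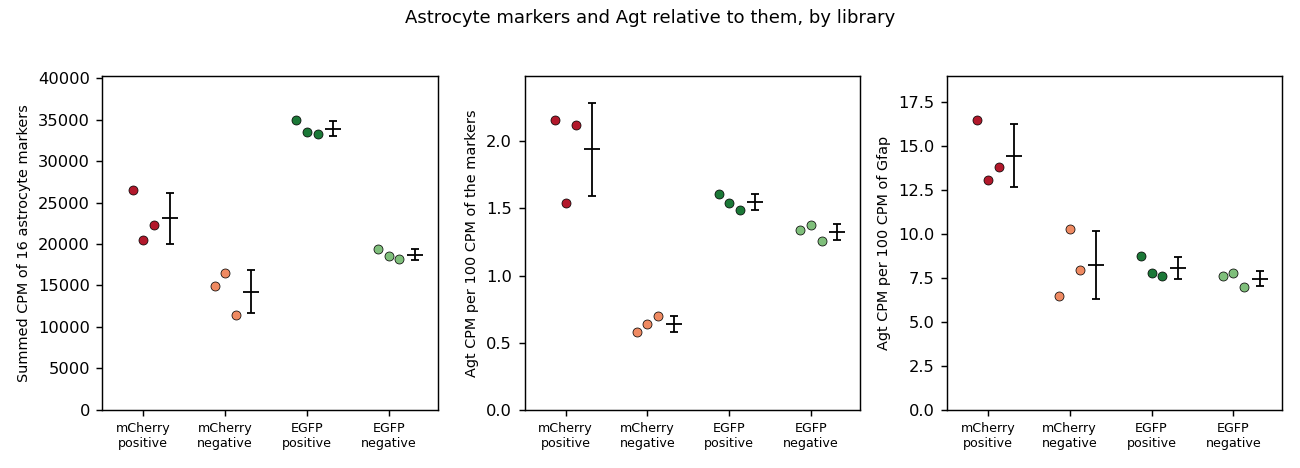
Left, summed level of 16 astrocyte markers in CPM; middle, Agt CPM per 100 CPM of those markers; right, Agt CPM per 100 CPM of Gfap, with 1 point per library and the mean and SD (bars, n = 3) in the 4 groups. The middle values are 1.54 to 2.16 in mCherry-positive against 0.578 to 0.698 in mCherry-negative libraries, and 1.49 to 1.61 in EGFP-positive against 1.26 to 1.38 in EGFP-negative libraries.

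The genes whose levels followed Agt most closely over the 12 libraries were found by the root mean square difference of log2 CPM. Here CPM was TMM-scaled with a prior count of 2, and each gene was centred on its own mean. Candidates were 11413 other genes that passed the filter over all 12 libraries and averaged 5 CPM or more. Clone, predicted, mitochondrial and pseudogene names and identifiers without a symbol are not among them. Among the nearest were Meig1, known from the making of sperm (difference 0.246), Padi2, an enzyme that citrullinates proteins (0.256), Serpina3n, a secreted serpin (0.299), and Ccdc60 (0.3). Meig1, for example, averaged 36.9 CPM in mCherry-positive, 8.78 in mCherry-negative, 41.9 in EGFP-positive and 19.3 CPM in EGFP-negative cells. Of the 15 astrocyte markers ranked, Gfap stood nearest to Agt, at rank 30 with a difference of 0.414, then Clu at rank 66 (0.491). The furthest were Glul at rank 2339 (0.948), S100b at 3560 (1.02), Aldh1l1 at 3875 (1.03) and Slc4a4 at 4226 (1.04), so the list did not follow Agt as a whole. Since the nearest genes were picked by likeness over these same libraries, their match is a description.

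**Figure D3:**
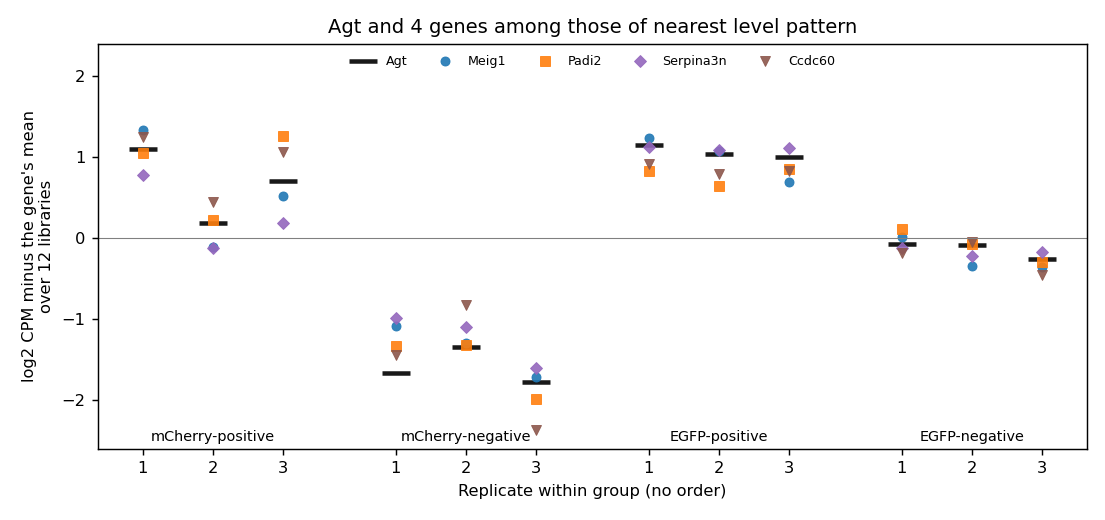
Level of Agt (black bars) and of 4 genes among those nearest to it (symbols), for each library of the 4 groups. Values are TMM-scaled log2 CPM minus the mean of each gene over 12 libraries. All of them are lowest in mCherry-negative libraries and close to their mean in EGFP-negative libraries.

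Renin itself was at or near the detection limit. Ren1, the aspartic protease that cuts angiotensinogen, had 1, 0 and 0 reads in mCherry-positive libraries, against 6, 0 and 0 reads in mCherry-negative libraries. It had 0, 1 and 1 reads in EGFP-positive libraries and 0 reads in all EGFP-negative libraries. Its highest level was 0.198 CPM (95% exact Poisson interval 0.0725 to 0.43, for counting error only) in mCherry-negative replicate 1, and 8 of 12 libraries had 0. The ratio of summed counts in the mCherry sort was 0.159, and its exact binomial interval ran from 0.00345 to 1.31; with so few reads no difference could be detected.

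Atp6ap2, the (pro)renin receptor and an accessory subunit of the proton-pumping V-ATPase, was read at over 100 CPM in every library. It had 328, 236 and 245 CPM in mCherry-positive libraries, against 200, 265 and 143 CPM in mCherry-negative libraries. These groups overlapped, and the log2 fold change was 0.39 ± 0.26 (SE). It had 211, 225 and 234 CPM in EGFP-positive libraries, against 165, 181 and 213 CPM in EGFP-negative libraries. There the groups overlapped as well, and the log2 fold change of 0.37 ± 0.12 (SE) did not pass (edgeR adjusted p 0.0679). The adjusted p was 0.0106 to 0.245 on leaving out a library, the lowest without EGFP-positive replicate 1. Atp6ap2 passed with DESeq2 (0.0443), with no filter (0.0487) and with replicate number as a further term of the edgeR fit. Its means ran in the order mCherry-positive (270 ± 50.6 CPM), EGFP-positive (223 ± 11.4), mCherry-negative (203 ± 61) and EGFP-negative (187 ± 24.6 CPM; SD, n = 3 each). Of these neighbours, mCherry-positive and EGFP-positive did not overlap and the others did. The 3 genes nearest to it in pattern were Fermt2, a partner of integrins (difference 0.107), Gnpda2, a glucosamine-phosphate deaminase (0.107), and Pigh, of GPI anchor synthesis (0.108).

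Ace, the converting enzyme, was low and uneven. It had 0.408, 3.38 and 5.02 CPM in mCherry-positive libraries, against 1.84, 1.5 and 0.737 CPM in mCherry-negative libraries. mCherry-positive replicate 1 held the lowest level of all 12 libraries and replicate 3 the highest, so the groups overlapped, with a log2 fold change of 1.05 ± 0.80 (SE). In those 3 mCherry-positive libraries the pituitary sums were 9.07, 2336 and 5553 CPM, and those of 8 choroid plexus markers 34, 282 and 80.8 CPM, while 12 endothelial markers summed to 7.48, 7.24 and 8.24 CPM, with Tek at 0 in all 3. In mCherry-negative libraries the pituitary sums were 7.48, 223 and 180 CPM, and the choroid plexus sums 37.8, 89.2 and 21.7 CPM. Pituitary sums were 37.3 to 65.2 CPM in EGFP-positive and 364 to 469 CPM in EGFP-negative libraries. Choroid plexus sums were 186 to 232 CPM in EGFP-positive and 66.6 to 73 CPM in EGFP-negative libraries. The part of any of these cells in the Ace levels was not tested. Ace in the EGFP sort had 1.47, 1.97 and 2.33 CPM in positive libraries, against 0.851, 1.36 and 2.46 CPM in negative libraries. The groups overlapped, with a log2 fold change of 0.46 ± 0.44 (SE; edgeR adjusted p 0.53). Of the exonic bases of Ace, 5.58% overlap the antisense gene Gm11651, and the labels do not say whether counting used strand.

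The type 1 receptor Agtr1a, which carries most known actions of angiotensin II, was rare. It had 19, 44 and 24 reads in mCherry-positive libraries, or 0.776, 1.39 and 0.73 CPM. In mCherry-negative libraries it had 1, 11 and 11 reads, or 0.0329, 0.338 and 0.507 CPM. All 3 positive libraries lay above all 3 negative ones, as did those of 12.7% of all genes tested. The log2 fold change was 1.70 ± 0.95 (SE). The EGFP sort ran the other way in its means, with 1, 16 and 5 reads, or 0.0587, 0.595 and 0.162 CPM, in EGFP-positive libraries, against 12, 47 and 12 reads, or 0.486, 1.82 and 0.737 CPM, in EGFP-negative libraries. There the groups overlapped, and the log2 fold change of -1.72 ± 0.79 (SE) did not pass (edgeR adjusted p 0.175). Without EGFP-negative replicate 2 it was -0.97, and without EGFP-positive replicate 2 it was -2.92, both uncalled. Over the groups Agtr1a averaged 0.966 ± 0.37 CPM in mCherry-positive, 0.292 ± 0.24 in mCherry-negative, 0.272 ± 0.284 in EGFP-positive and 1.01 ± 0.71 CPM in EGFP-negative cells (SD, n = 3 each). EGFP-negative overlapped mCherry-positive at the top of that order, mCherry-negative overlapped EGFP-positive at the bottom, and mCherry-positive did not overlap mCherry-negative. EGFP-negative, whose lowest library had 0.486 CPM, overlapped all the other groups.

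The type 2 receptor Agtr2, known from fetal tissues, was at the detection limit. It had 5, 4 and 0 reads in mCherry-positive libraries, against 0, 6 and 1 reads in mCherry-negative libraries. The ratio of summed counts was 1.22 (exact binomial interval 0.405 to 3.86), and this depth could not show a difference. Among EGFP libraries it had 0, 0 and 3 reads in positive libraries and 0 reads in all negative libraries (2-sided exact permutation p = 1).

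The 3 aminopeptidases differed in level and pattern. Enpep, which removes the first residue of angiotensin II, had 7, 15 and 14 reads in mCherry-positive libraries, or 0.286, 0.475 and 0.426 CPM. In mCherry-negative libraries it had 10, 0 and 6 reads, or 0.329, 0 and 0.277 CPM, and the groups overlapped (log2 fold change 0.96 ± 1.12 SE). EGFP-positive libraries had 0 reads of it each, against 0, 0 and 6 reads in EGFP-negative libraries (2-sided exact permutation p = 1). All of its EGFP-negative reads came from replicate 3.

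Anpep, which trims angiotensin III, was absent from the reads of EGFP-positive cells. It had 0 reads in all EGFP-positive libraries, against 9, 16 and 5 reads in EGFP-negative libraries, or 0.365, 0.62 and 0.307 CPM. Over the summed counts, with a floor of 3 counts over the positive group, it was at least 11.2-fold lower in EGFP-positive cells, with the 30 EGFP-negative reads taken as they stand. The groups did not overlap, and the 2-sided exact permutation test gave p = 0.1, the smallest that 3 against 3 allows. It was too low for the filter of edgeR's quasi-likelihood test, which called it with no filter. Anpep in the mCherry sort had 1.8, 0 and 1.16 CPM in positive libraries, against 0.823, 0.0921 and 0.645 CPM in negative libraries. These groups overlapped, with a log2 fold change of 0.92 ± 1.31 (SE) that was -0.35 with limma-voom.

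Beside Anpep, markers of fibroblasts and meninges moved in the EGFP sort, where 1 of 10 rose and 9 fell in positive cells. Of all genes tested there, 8.99% were called higher and 7.07% lower. The 10 genes summed to 42.2 to 64.7 CPM in EGFP-positive and 398 to 431 CPM in EGFP-negative libraries, and no marker was at 0 throughout a group. In mCherry-positive libraries they summed to 189, 11.3 and 146 CPM, the lowest in replicate 2, in which Anpep had no read. In mCherry-negative libraries they summed to 409, 160 and 126 CPM, against 0.823, 0.0921 and 0.645 CPM of Anpep. There the lowest sum was in replicate 3 and the lowest Anpep in replicate 2. The 11 pericyte and smooth muscle markers summed to 121 to 186 CPM in EGFP-positive libraries, with Abcc9 and Higd1b at 0, and to 207 to 220 CPM in EGFP-negative libraries, with Higd1b at 0. Of the 7 tested there 3 rose and 2 fell. The part of these cells in the Anpep levels was not tested.

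Lnpep, the insulin-regulated aminopeptidase that binds angiotensin IV, passed no test. It had 7.19, 3.7 and 4.59 CPM in mCherry-positive libraries, against 6.55, 4.7 and 2.35 CPM in mCherry-negative libraries, and the groups overlapped. The log2 fold change of 0.17 ± 0.49 (SE) turned to -0.19 without mCherry-positive replicate 1 and to -0.12 without mCherry-negative replicate 3. EGFP-sorted cells had 3.17, 4.57 and 4.56 CPM of Lnpep in positive libraries, against 5.84, 4.96 and 5.22 CPM in negative libraries. All positive libraries lay below all negative ones, as did those of 24.5% of all genes tested, but the log2 fold change of -0.26 ± 0.24 (SE) did not pass (edgeR adjusted p 0.507).

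Of the 9 genes, 7 passed the filter in the mCherry sort, and 2 had all positive libraries above all negative; with 12.7% of genes above and 12.7% below, and Agt picked on this contrast, nothing is read from these counts. In the EGFP sort 5 passed the filter and 1 of them was called, where 8.99% of all genes tested were called higher and 7.07% lower. There 1 of the 5 had all positive libraries above all negative, as did 13.4% of all genes tested. For the mCherry effect minus the EGFP effect, 6 passed the filter, and their values are described without a test. Of all 18063 genes tested there, 1.44% were called.

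**Figure D4:**
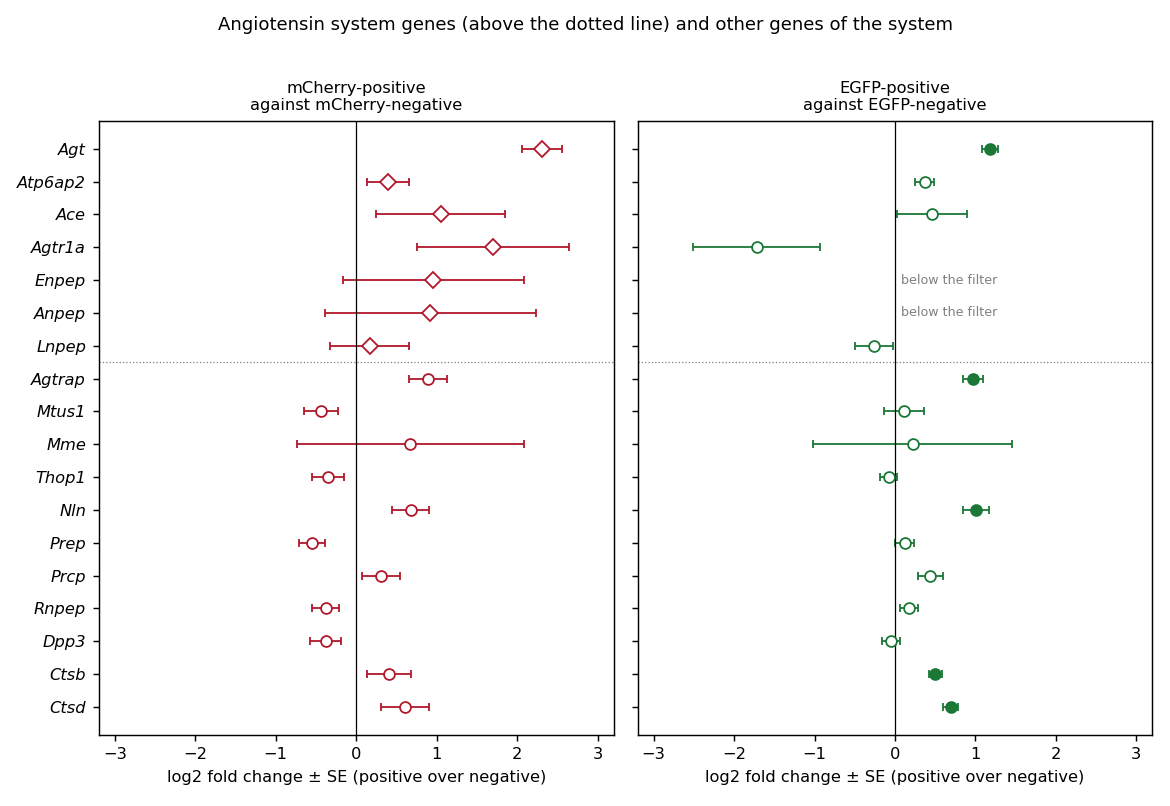
Log2 fold change with its SE (horizontal axes, positive over negative cells) in the mCherry sort (left) and the EGFP sort (right), for the angiotensin system genes and, below the dotted line, other genes of the system that passed the filter. Filled circles are called, open circles are not, and diamonds are the genes given with no test; Agt stands at 2.31 in the mCherry sort and 1.18 in the EGFP sort.

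Levels of different genes are compared per kb of exon, where Agt and Atp6ap2 stood far above the rest. Agt reached 240 ± 68.9 CPM per kb in mCherry-positive, 47.8 ± 7.1 in mCherry-negative, 277 ± 18.2 in EGFP-positive and 132 ± 8.68 CPM per kb in EGFP-negative cells (SD, n = 3 each). Atp6ap2 stood at 103 ± 19.3 CPM per kb in mCherry-positive, 77.5 ± 23.3 in mCherry-negative, 85.3 ± 4.35 in EGFP-positive and 71.3 ± 9.41 CPM per kb in EGFP-negative cells. Agt thus lay above Atp6ap2 in every library of the positive groups and of EGFP-negative cells, while in mCherry-negative cells Agt had 42.1 to 55.8 CPM per kb and Atp6ap2 54.7 to 101. The other 7 genes were below 1 CPM per kb in every library, and the highest was Ace at 0.949 CPM per kb in mCherry-positive replicate 3.

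**Figure D5:**
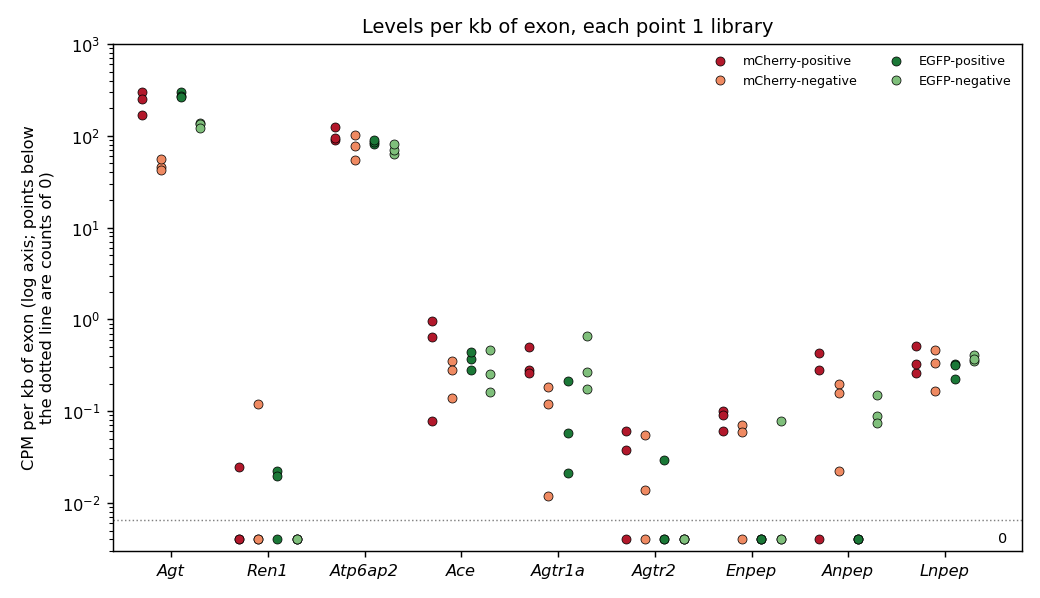
Level in CPM per kb of exon (log axis; counts of 0 are drawn below the dotted line) of the 9 angiotensin system genes, with 1 point per library in 4 groups. Agt and Atp6ap2 lie between 42.1 and 303 CPM per kb, and the other 7 genes lie below 1 CPM per kb.

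A list of 19 other genes of the system, receptor partners and further angiotensin-cutting peptidases, had 11 that passed the filter in each sort. Between EGFP-positive and EGFP-negative cells 4 rose and 0 fell, with a median log2 fold change of 0.22, against -0.01 over all genes tested. Of all genes tested there, 8.99% were called higher and 7.07% lower. Agtrap, which binds the type 1 receptor and drives its internalization, had 77.9, 78.1 and 69.3 CPM in EGFP-positive libraries, against 38.6, 41.9 and 43.1 CPM in EGFP-negative libraries (log2 fold change 0.97 ± 0.12 SE, adjusted p 0.00108 by edgeR). Nln, neurolysin, a peptidase that also cuts angiotensins, had 102, 122 and 150 CPM in EGFP-positive libraries, against 64, 70.2 and 67.1 CPM in EGFP-negative libraries (1.01 ± 0.16 SE, adjusted p 0.00341 by edgeR). The lysosomal proteases Ctsd, cathepsin D (0.69 ± 0.09 SE), and Ctsb, cathepsin B (0.50 ± 0.08 SE), rose as well (edgeR adjusted p 0.00155 for Ctsd and 0.00341 for Ctsb). Markers of microglia, which are rich in lysosomal proteases, summed to 7.32 to 8.46 CPM in EGFP-positive and 34.4 to 46.6 CPM in EGFP-negative libraries, and their part in the cathepsin levels was not tested. With all 12 libraries in the fit, 2 of the 4 were called, Agtrap and Nln.

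Between mCherry-positive and mCherry-negative cells 0 of the 11 were called by edgeR, while 3 had an unadjusted p under 0.05. Of all 17369 genes tested there, 3233 were under that threshold. DESeq2 called Agtrap and Prep, where it called 885 of 17340 genes higher and 591 lower, and limma-voom called 0 of the 11. The median log2 fold change of the 11 was 0.31, against 0.02 over all genes tested. Agtrap had 59.6, 51.9 and 55.7 CPM in mCherry-positive libraries, against 34.7, 33.8 and 20.5 CPM in mCherry-negative libraries, groups that did not overlap (0.89 ± 0.24 SE, adjusted p 0.103 by edgeR). Nln had 150, 116 and 107 CPM in mCherry-positive libraries, against 93.2, 79.8 and 56.9 CPM in mCherry-negative libraries (0.68 ± 0.23 SE, adjusted p 0.166 by edgeR). Prep, prolyl endopeptidase, which can release the heptapeptide angiotensin from angiotensin I or II, had 74.8, 72.8 and 72.4 CPM in mCherry-positive libraries and 107, 105 and 105 CPM in mCherry-negative libraries (-0.55 ± 0.16 SE, adjusted p 0.12 by edgeR). Ctsb and Ctsd were highest in mCherry-positive replicate 1, at 1698 and 795 CPM, where the microglia sum was 614 CPM, and their part in these levels was not tested. Of the genes not tested, the chymase and mast cell genes Cma1 and Mcpt4 and the receptor gene Mrgprd had 0 reads in all 12 libraries. Mas1, the receptor of the heptapeptide, had 0 reads in all EGFP-positive libraries, against 0.324, 0.155 and 0.368 CPM in EGFP-negative libraries, too low for the filter.

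Among 12 listed transcriptional regulators of Agt, 11 passed the filter. Of these, 4 rose and 1 fell in EGFP-positive cells, where 8.99% of all genes tested were called higher and 7.07% lower. Cebpd, a C/EBP factor of the acute-phase response, had a log2 fold change of 0.58 (edgeR adjusted p 0.0228), and Stat3, a transducer of cytokine signals, 0.53 (adjusted p 0.0239). Nr3c1, the glucocorticoid receptor, had 0.53 (adjusted p 0.0344 by edgeR) and Thrb, a thyroid hormone receptor, 0.94 (adjusted p 0.0351). Thra, the other thyroid hormone receptor, fell (-0.67 ± 0.12 SE, adjusted p 0.00683 by edgeR), with 97.2, 91.3 and 82.6 CPM in EGFP-positive libraries, against 173, 153 and 138 CPM in EGFP-negative libraries. For the mCherry sort the count was 0 of 11 by edgeR, 2 by DESeq2 and 1 by limma-voom, and 2 had an unadjusted p under 0.05. Of all 17369 genes tested there, 3233 had an unadjusted p under 0.05. DESeq2 called 885 of 17340 genes higher and 591 lower there, and limma-voom called 100 of 17369 higher and 146 lower. Thrb there had 15.3, 21.5 and 19.6 CPM in mCherry-positive libraries, against 7.48, 6.08 and 2.63 CPM in mCherry-negative libraries (1.77 ± 0.39 SE, adjusted p 0.0633 by edgeR).

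The downstream hormone of the system in the body is aldosterone, made in the adrenal gland. Of its synthesis genes, Cyp11b2, the aldosterone synthase, and Cyp21a1 had 0 reads in all 12 libraries. Of 8 genes of aldosterone synthesis and action 4 passed the filter. Sgk1, a kinase that mineralocorticoids and glucocorticoids induce, fell in EGFP-positive cells, with 47.7, 52.1 and 48.9 CPM, against 133, 144 and 146 CPM in EGFP-negative libraries (-1.40 ± 0.11 SE, adjusted p 1.95e-04 by edgeR). Sgk1 in the mCherry sort had 147, 110 and 73.8 CPM in positive libraries, against 115, 96.9 and 85.9 CPM in negative libraries, groups that overlapped (0.14 ± 0.27 SE, adjusted p 0.815 by edgeR). There 0 of the 4 were called by edgeR, by DESeq2 or by limma-voom, and 0 had an unadjusted p under 0.05. Beside Sgk1, 7 of the 8 oligodendrocyte markers fell in EGFP-positive cells, as did 7.07% of all genes tested. The 8 markers summed to 1223 to 1328 CPM in EGFP-positive and 4082 to 4213 CPM in EGFP-negative libraries. They summed to 3720 to 5468 CPM in mCherry-positive and 3169 to 4000 CPM in mCherry-negative libraries. Their part in the Sgk1 levels was not tested. Nr3c2, the mineralocorticoid receptor, had 4.93, 6.43 and 4.4 CPM in EGFP-positive libraries, against 4.13, 2.91 and 3.44 CPM in EGFP-negative libraries (0.70 ± 0.25 SE, adjusted p 0.0935 by edgeR).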

How the data were processed

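The deposited files hold whole-number read counts per Ensembl gene, 1 file per library, with no normalization. Per the submitters' processing notes, the authors used cutadapt 1.8, STAR 2.5.2b and HTSeq 0.6.1 on GRCm38; their settings, the annotation release and strand use are not given in the sources used here. Per the labels' protocols, SMART-Seq v4 took 0.8 ng of total RNA (Hcrt sort) or 2 ng (MCH sort) through 11 PCR cycles, so input and sort cannot be told apart, and levels set across sorts carry that difference. The last 5 entries of each file, which name no gene, held 31.4% to 38.2% of counted reads and were left out. Of 48709 identifiers, 48349 matched GENCODE M21, used for symbols, positions and exon length.

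Each sort was fitted on its own 6 libraries, and the difference of effects on all 12, with edgeR 4.0.16 (R 4.3.3): TMM scaling, filterByExpr (minimum count 10, minimum total 15), group as the only term, quasi-likelihood test, Benjamini-Hochberg adjustment and calls at an adjusted p under 0.05. Fold changes are positive over negative, with the SE derived from the F statistic. For genes under the filter a 2-sided exact permutation test was used (3 against 3 cannot go below p = 0.1), beside exact Poisson intervals and exact binomial intervals of the count ratio (95%, scipy 1.17.1). Without molecular identifiers, PCR copies are not separate molecules, and intervals and floors cover only counting error. The labels do not say whether replicates were separate cultures, so p-values measure the spread between these samples. No pair of replicates was a repeat of 1 library (chi-square per degree of freedom 6.2 to 88.5). The model was also run on simulated counts. Their spread was set below that of the mCherry fit (common coefficient of variation 0.382) and of the fit of the difference (0.313). That run thus does not show how well the test works there. Alternatives were DESeq2 1.42.0, limma-voom (limma 3.58.1), other scaling and filters, a replicate block, a fit of all 12 libraries and leaving out each library.

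The 9 genes, all gene lists and the naming rule were chosen with earlier results of these data known. The text gives all 9 genes, other genes of the system called in either sort, up to 4 called genes of other lists by smallest adjusted p, and 4 of the 5 genes nearest to Agt; the other is not reported here. Genes named outside that rule were chosen after their values were seen. They include Prep, Mas1, Nr3c2, Thrb, genes listed at 0, and Agtrap, Nln, Ctsb and Ctsd in the mCherry sort. Also among them are the astrocyte markers S100b, Aldh1l1, Glul and Slc4a4.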

Additional observations from a re-analysis of the deposited data

Results flagged for a closer look

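The effect of the sort on Sgk1, a kinase induced by corticosteroids, differed between the sorts: the mCherry effect minus the EGFP effect was 1.51 ± 0.31 (SE) on the log2 scale, and it passed the edgeR quasi-likelihood test (adjusted p 0.0304) over 18063 genes, 1.44% of which were called. Sgk1 averaged 110 ± 36.5 CPM in mCherry-positive and 99.4 ± 14.9 CPM in mCherry-negative cells, against 49.6 ± 2.29 CPM in EGFP-positive and 141 ± 6.64 CPM in EGFP-negative cells (SD, n = 3 each). Of 8 oligodendrocyte markers, 5 were called higher in the same difference of effects, and their part in that of Sgk1 was not tested. The sorts also differ in virus and in RNA input, which cannot be told apart from the reporter.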

How the results depend on the processing

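Alternatives left the log2 values of the 9 genes in the same direction and on the same side of the threshold in 231 of 257 fits. These include the contrasts where the 9 genes are only described. All 42 alternative values of genes under the filter moved by less than 1 SD between replicates. With 3 libraries per group, leaving out a library cannot move a mean further than that, so nothing is read from those values. Signs turned for Anpep in the mCherry sort with limma-voom (-0.35), for Lnpep there on leaving out libraries (range -0.19 to 0.51), for Ace in the difference of effects with limma-voom (-0.01), and for Atp6ap2 in that difference, a value near 0, with DESeq2 size factors (0.04), DESeq2 (0.04), the stricter filter (0.01), the replicate block (0.02) and on leaving out libraries (-0.22 to 0.25). On leaving out libraries of the mCherry sort, the difference of mean levels (positive minus negative) also changed sign for Agtr2 (-0.0135 to 0.0887 CPM) and Ren1 (-0.0852 to 0.0136 CPM). The cause was not tested.

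In the mCherry sort 208 genes were called, against 778 with no filter, 316 with the stricter filter and 1476 with DESeq2. There were 1712 in a fit of all 12 libraries and 0 to 212 on leaving out a library. Other system genes called there were 1 with no filter, 2 with DESeq2 and 2 with all 12 libraries. In the EGFP sort 2622 were called, against 801 with all 12 libraries and 1137 to 5244 on leaving out a library; members called were 3 with no filter, 2 with DESeq2 and 1 to 2 on leaving out a library, and other system genes 2 with all 12 libraries. For the difference of effects 261 were called, against 675 with no filter, 894 with DESeq2 and 27 to 591 on leaving out a library. Calls of the angiotensin system members in the mCherry sort and in this difference are left out, since Agt was picked on the mCherry contrast.

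Whether replicate numbers pair the libraries is not settled here. Same-numbered libraries correlated in their deviations from group means at 0.126, -0.0205 and 0.0327 (mCherry) and 0.169, 9.48e-04 and 0.0656 (EGFP). Differently numbered libraries correlated at -0.14 to 0.123 (mCherry) and -0.15 to 0.0928 (EGFP). The highest value of each sort was that of replicate 1 with replicate 1. With the replicate block 343 genes were called in the mCherry sort, 3409 in the EGFP sort and 293 for the difference. In the EGFP sort 2 of the 9 genes were called with it, Agt and Atp6ap2 (adjusted p 0.0192 for Atp6ap2 by edgeR).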
